A study of Homo sapiens with 20 samples.

Results

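The genomic regions described here are those that chromatin immunoprecipitation with sequencing (ChIP-seq) placed at RUNX1, RUNX2, RUNX3 and CBFB, the 3 human RUNX transcription factor genes and the gene of their shared partner. Members were the regions of 20 lists that overlapped the gene body of 1 of these 4 genes or the 50 kb on either side of it, on GRCh38 with GENCODE 44 gene models. They numbered 649 of 562813 regions. The lists form 10 pairs, each with a library from cells given 1 µM AU-15330, a PROTAC (a molecule that marks a protein for breakdown) directed at the SWI/SNF ATPases SMARCA2 and SMARCA4, and a library from cells given its solvent DMSO. Treatment lasted 4 to 6 h by the labels, and the titles of the HA libraries of NCI-H1048 give 6 h.

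Of the 10 pairs, 6 came from SCLC-P, the small cell lung cancer subtype driven by POU2F3. In NCI-H526 these were POU2F3, HA-tagged POU2F3 and HA-tagged POU2AF2. In NCI-H1048 they were POU2F3 (taken from the antibody, which is the one used for POU2F3 in NCI-H526), HA-tagged POU2F3, and 1 more pair made with the HA antibody, for which no label states the protein that bore the tag. The tagged proteins carried a dTAG degron and were introduced by lentivirus into Cas9-expressing cells in place of the endogenous gene, so those lists come from engineered lines. The other 4 pairs came from multiple myeloma, where POU2AF1 and IRF4 were precipitated from MM1.S and from NCI-H929. POU2F3 is the octamer-binding factor that defines tuft cells, POU2AF1 and POU2AF2 are coactivators that bind POU factors on DNA, and IRF4 is a transcription factor that plasma cells need. There was 1 library for each line, protein and treatment, so no difference below has a replicate check, and each interval covers counting error only. Marker genes tell the labels apart only in part. Tuft cell genes held a region at 7 of 7 in each SCLC-P DMSO list and at 4 to 6 of 7 in the myeloma DMSO lists, but plasma cell genes held one at 7 of 7 in 4 of the 6 SCLC-P DMSO lists as well as in each myeloma DMSO list. Between 63.0 and 94.6% of all protein-coding genes held a region in a DMSO list, and neuroendocrine, T cell and hepatocyte genes held one at 3 of 3 in several.

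RUNX proteins bind DNA through the Runt domain, and CBFB, which does not touch DNA itself, binds that domain and strengthens its hold. RUNX1 is required for the first blood stem cells and is recurrently mutated or fused in leukemia, RUNX2 directs bone formation, and RUNX3 acts in T cells, in epithelia and, in mice, in sensory neurons. Each RUNX gene has a distal promoter (P1) and a proximal promoter (P2) that start different N termini, and RUNX proteins bind their own promoters and those of each other.

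The sequences that follow were chosen because they carry the matches at the sites the results turn on. The first set compares the P1 promoters. On the strand of the gene, each holds the RUNX pattern AACCACA in tandem with 1 base between the copies, and capitals mark these copies. The stretches are chr21:35049260-35049288 (minus strand), chr6:45328338-45328366 (plus) and chr1:24965121-24965149 (minus).
RUNX1 P1: cataaacAACCACAgAACCACAagttggg
RUNX2 P1: cacaaacAACCACAgAACCACAagtgcgg
RUNX3 P1: gtccctcAACCACAgAACCACAaggccag
The RUNX1 pair begins 63 bases and the RUNX2 pair 28 bases downstream of the start of P1, and the RUNX3 pair lies upstream, at -132. Of 35116 promoters in the RefSeq table of the same build (250 bases before to 50 after a start), 2 hold this tandem on either strand, those of RUNX2 and RUNX3. The P1 promoter of RUNX1 has no entry in that table, and an entry at the P1 start used here would end before its pair. The RUNX1 pair lay inside a region of 4 DMSO lists, the RUNX3 pair inside a region of 3, and the RUNX2 pair inside none. A further RUNX pattern of RUNX1 P1 overlaps the octamer core TTTGCAT, read on the other strand as ATGCAAA (chr21:35049176-35049201, minus strand; capitals mark the overlapping letters).
RUNX1 P1 overlap: acactgaATGCAAACCACAgggtttc

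The second set gives the strongest or most widely shared sites, on the plus strand, 5′ to 3′. Sites are named by their distance from the start of P1, in kb along the gene, with a minus sign for upstream. Capitals mark the octamer core TTTGCAT in the first group, which are RUNX1 P2 at chr21:34888740-34888820, RUNX1 -659 kb at chr21:35708379-35708459, RUNX1 -178 kb at chr21:35227495-35227575, RUNX1 -472 kb at chr21:35521052-35521147 and RUNX2 +279.6 kb at chr6:45607859-45607954. RUNX1 -311 kb, at chr21:35360345-35360425, holds no octamer core, RUNX, IRF or AP-1 pattern.
RUNX1 P2: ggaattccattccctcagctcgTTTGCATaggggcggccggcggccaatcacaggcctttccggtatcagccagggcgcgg
RUNX1 -659 kb: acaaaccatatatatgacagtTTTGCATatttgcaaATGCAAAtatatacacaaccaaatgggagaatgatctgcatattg
RUNX1 -178 kb: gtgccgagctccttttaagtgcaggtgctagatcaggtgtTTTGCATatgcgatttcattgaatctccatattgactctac
RUNX1 -472 kb: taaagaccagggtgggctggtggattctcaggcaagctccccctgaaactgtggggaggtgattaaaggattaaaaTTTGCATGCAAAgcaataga
RUNX2 +279.6 kb: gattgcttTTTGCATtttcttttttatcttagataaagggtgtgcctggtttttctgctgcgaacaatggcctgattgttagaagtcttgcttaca
RUNX1 -311 kb: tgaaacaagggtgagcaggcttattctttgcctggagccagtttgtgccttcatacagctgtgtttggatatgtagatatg
The -659 kb and -472 kb sites each hold 2 cores, which overlap at -472 kb.

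The third set comes from sites that are strongest in the myeloma lists, plus strand. Capitals mark the AP-1 pattern TGAGTCA at RUNX1 +203 kb (chr21:34845873-34845953), AP-1 and the IRF pattern (GAAA, any 2 bases, GAAA) at RUNX2 +382 kb (chr6:45709974-45710087), overlapping IRF patterns at RUNX2 +231 kb (chr6:45558924-45559004), and the RUNX tandem with the ETS and IRF composite (GGAA, any 2 bases, GAAA) at RUNX3 P1 (chr1:24965120-24965308).
RUNX1 +203 kb: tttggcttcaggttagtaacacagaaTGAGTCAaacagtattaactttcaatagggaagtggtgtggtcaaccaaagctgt
RUNX2 +382 kb: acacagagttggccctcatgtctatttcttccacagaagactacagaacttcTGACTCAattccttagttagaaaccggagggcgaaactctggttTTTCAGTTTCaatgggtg
RUNX2 +231 kb: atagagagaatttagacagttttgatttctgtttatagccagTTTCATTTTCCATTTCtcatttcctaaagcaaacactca
RUNX3 P1: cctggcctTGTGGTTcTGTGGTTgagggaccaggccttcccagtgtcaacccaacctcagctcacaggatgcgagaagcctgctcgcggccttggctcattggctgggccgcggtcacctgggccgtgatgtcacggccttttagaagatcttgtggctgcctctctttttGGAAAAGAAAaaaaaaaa

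Regions lay at every member gene, most of them at RUNX1. The AU-15330 lists held 128 regions in the 4 windows and the DMSO lists 521. RUNX1 took 80 with AU-15330 and 352 with DMSO, RUNX2 30 and 124, RUNX3 11 and 22, and CBFB 7 and 23. The annotated body of RUNX1 is long, since some GENCODE transcripts start far upstream, and 955 kb of it lie upstream of P1 against 262 kb from P1 to the end of the gene. In the NCI-H526 POU2F3 DMSO list, 59 regions lay in the upstream stretch, or 6.18 per 100 kb, and 25 in the P1 part, or 9.56 per 100 kb. Each window except that of RUNX3 also touches another protein-coding gene, which is SETD4 for RUNX1, SUPT3H for RUNX2, and CES4A, PHAF1 and B3GNT9 for CBFB. A region there is assigned to a member by position alone.

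Measured as regions per 100 kb among the windows of 20033 protein-coding genes, the members were not extreme. RUNX1 was denser than 42.1% of genes in the NCI-H929 POU2AF1 DMSO list, its lowest place, and than 86.5% in the NCI-H526 POU2F3 DMSO list, its highest. RUNX2 stood between 43.8 and 85.0%, RUNX3 between 0 and 74.1%, and CBFB between 0 and 71.2% over the 10 DMSO lists.

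**Figure D1:**
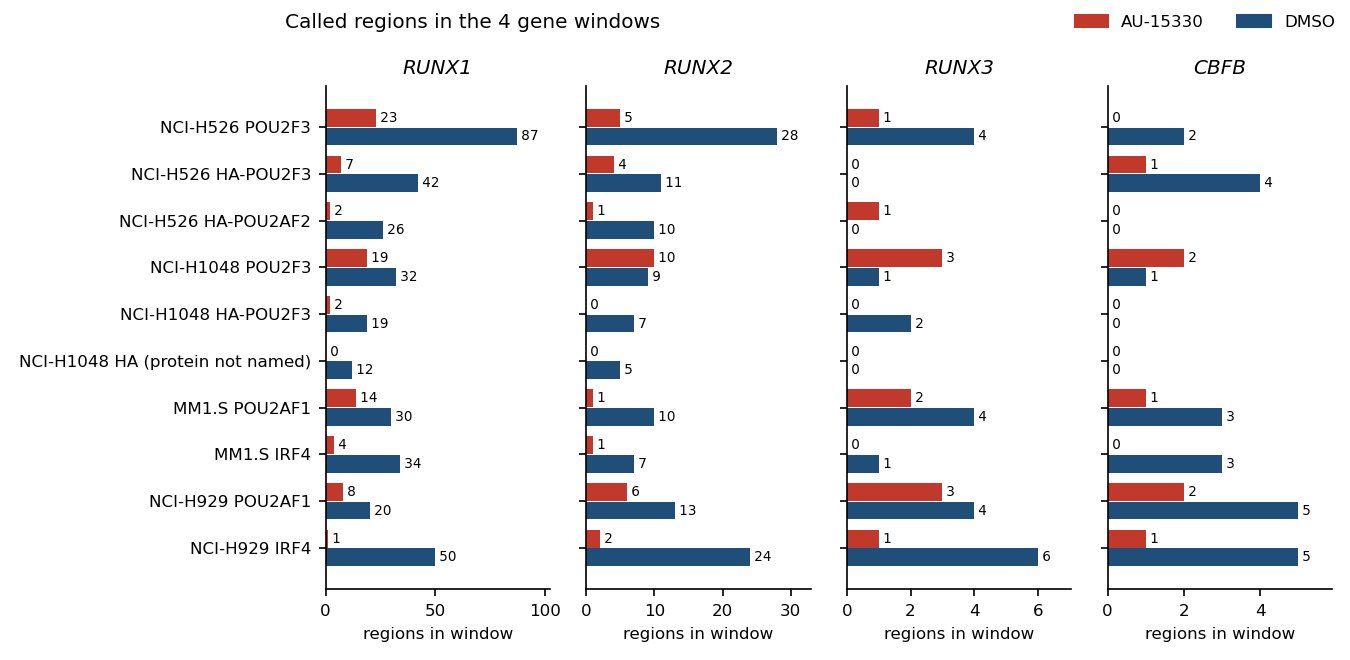
Number of regions (horizontal axis) in the window of each member gene for each line and protein, with AU-15330 as the red bar above DMSO as the blue bar. RUNX1 had 23 regions with AU-15330 against 87 with DMSO for NCI-H526 POU2F3, and 1 against 50 for NCI-H929 IRF4.

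The 649 regions merged into 264 sites, of which 242 held a DMSO region. Of those 242, 129 held a region in SCLC-P lists only, 89 in myeloma lists only, and 24 in both (9.92%). RUNX1 had 97 SCLC-P sites, 57 myeloma sites and 12 in both. RUNX2 had 27, 22 and 8, RUNX3 had 4, 5 and 1, and CBFB 1, 5 and 3. No protein named in the labels was precipitated in both tumor types, so tumor type and protein cannot be told apart. The whole lists were not merged into sites. An NCI-H526 POU2F3 DMSO region overlapped 36.2% of MM1.S POU2AF1 member regions (34.6% over the list) and 24.4% of those of MM1.S IRF4 (26.9%). In NCI-H929 it was 31.0% for POU2AF1 (37.6%) and 21.2% for IRF4 (21.1%). Of the 242 sites, 141 were each held by only 1 DMSO list, not always the same one. Against that, RUNX1 P2 and the RUNX2 +382 kb site held a region in all 10 DMSO lists, and the RUNX1 -178 kb site in 9. Among the sites with no myeloma DMSO region, 10 were in 5 or more of the 6 SCLC-P lists, 8 of them at RUNX1. Among the sites with no SCLC-P DMSO region, 11 were in all 4 myeloma lists, including RUNX1 P1 and RUNX3 P1.

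Promoters differed in which lists reached them. RUNX1 P2 was in all 10 DMSO lists, whereas a region over RUNX1 P1 was in the 4 myeloma lists alone. The nearest SCLC-P region was in the NCI-H526 POU2F3 DMSO list, at -0.823 kb with a fold of 2.64. The fold is the enrichment at a region's summit that the authors' peak caller MACS2 gives, and the level, used below, is the number of fragments at the summit divided by the background number of the same library. Over P1, NCI-H929 POU2AF1 had a fold of 6.91 with AU-15330 and 3.80 with DMSO, and a level of 15.2 against 7.70. For MM1.S POU2AF1 the fold was 5.60 with AU-15330 and 7.08 with DMSO, and the level 15.4 against 24.5. IRF4 had no region over RUNX1 P1 with AU-15330, against DMSO folds of 6.39 in MM1.S and 5.07 in NCI-H929. The 2 myeloma lines thus differed in direction for POU2AF1 at this promoter, and in neither line did IRF4 keep its region there.

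At RUNX1 P2 the pairs did not move one way. For NCI-H1048 POU2F3 the level was 27.3 with AU-15330 and 11.5 with DMSO, a ratio of 2.38. For NCI-H526 POU2F3 it was 15.3 against 18.8 (ratio 0.813), and for NCI-H526 HA-POU2F3 8.61 against 27.0 (0.319). Among the 3 SCLC-P pairs that kept the P2 region, the level was thus higher with AU-15330 in the untagged NCI-H1048 pair and lower in both NCI-H526 pairs, while the other 2 NCI-H1048 pairs lost it. Among the myeloma pairs, MM1.S POU2AF1 had a level of 18 with AU-15330 and 47.7 with DMSO (0.378), the largest DMSO level of any member region named here. NCI-H929 POU2AF1 stood at 16.2 with AU-15330 and 18.8 with DMSO (0.859). The main P2 region was absent with AU-15330 in the other 5 pairs, where its DMSO folds were 4.95 (NCI-H526 HA-POU2AF2), 5.74 (NCI-H1048 HA-POU2F3), 3.78 (the unnamed HA protein), 4.03 (NCI-H929 IRF4) and 3.37 (MM1.S IRF4, which kept a flanking region with a ratio of 0.534). The octamer core printed above for P2 lay within 50 bases of a summit in 6 of the 9 DMSO lists with summits and in 4 of 6 AU-15330 lists with a region there.

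The strongest RUNX1 regions of the SCLC-P lists lay far upstream of P1, inside the long annotated body. At -311 kb, POU2F3 in NCI-H1048 had a fold of 3.47 with AU-15330 against 13.1 with DMSO, and a level of 4.28 against 29.1. That ratio of 0.147 was the lowest among the retained member regions of that pair. HA-POU2F3 in NCI-H526 had a fold of 6.57 with AU-15330 against 16.0 with DMSO and a level of 10.3 against 41.4 (ratio 0.249). POU2F3 in NCI-H526 had 8.28 against 12.3 and a level of 17.8 against 29.0 (0.613). The region was absent with AU-15330 for NCI-H526 HA-POU2AF2, NCI-H1048 HA-POU2F3 and the unnamed HA protein, where DMSO folds were 10.6, 6.54 and 4.99. This site was thus in all 6 SCLC-P DMSO lists and no myeloma list, and its level was lower in each of the 3 pairs that kept it.

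The -659 kb site, with its 2 octamer cores, had the highest RUNX1 fold of NCI-H526 POU2F3, 15.9 with DMSO (rank 227 of 89902 regions), against 6.02 with AU-15330. Its level was 10.9 with AU-15330 and 38.7 with DMSO (ratio 0.281). Regions at -659 kb were lost in the other pairs that had one, with DMSO folds of 11.6 for NCI-H526 HA-POU2F3, 9.37 for NCI-H526 HA-POU2AF2, 5.58 for NCI-H1048 HA-POU2F3 and 4.08 for NCI-H1048 POU2F3. No myeloma DMSO list held this site, although a separate site close to it, at -662 kb, was in all 4 of them and in no SCLC-P DMSO list.

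The -178 kb site was the most widely held site upstream of P1, and every pair that kept it had a lower level with AU-15330. The ratio was 0.258 for NCI-H526 POU2F3 (level 7.41 with AU-15330 against 28.8 with DMSO), 0.274 for NCI-H526 HA-POU2F3 and 0.639 for NCI-H1048 POU2F3. In myeloma it was 0.529 for MM1.S POU2AF1 (22.7 against 42.8), 0.358 for MM1.S IRF4 (12.7 against 35.6) and 0.763 for NCI-H929 POU2AF1. Its region was lost for NCI-H929 IRF4, NCI-H1048 HA-POU2F3 and NCI-H526 HA-POU2AF2, with DMSO folds of 9.07, 7.57 and 3.77. Like RUNX1 P2, this site was shared by both tumor types and by 4 of the proteins and holds an octamer core, which lay within 50 bases of a summit in 3 of 9 DMSO lists with summits and in 3 of 6 AU-15330 lists with a region there.

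In myeloma the strongest RUNX1 region was that of IRF4 at +203 kb, in an intron downstream of P2. It was absent from both AU-15330 lists, against DMSO folds of 12.6 in MM1.S (rank 90 of 33327) and 15.9 in NCI-H929 (rank 294 of 65176). POU2AF1 had no region there with AU-15330 either, against DMSO folds of 6.35 in MM1.S and 5.30 in NCI-H929. No SCLC-P DMSO list held this site. IRF4 in MM1.S kept a region at +183 kb, where its fold was 4.34 with AU-15330 and 9.88 with DMSO (level ratio 0.287), while the NCI-H929 IRF4 region there, with a DMSO fold of 10.6, was lost. The strongest RUNX1 region of NCI-H929 POU2AF1, at +74.9 kb, was kept, with a fold of 5.16 with AU-15330 and 6.39 with DMSO (ratio 0.748).

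**Figure D2:**
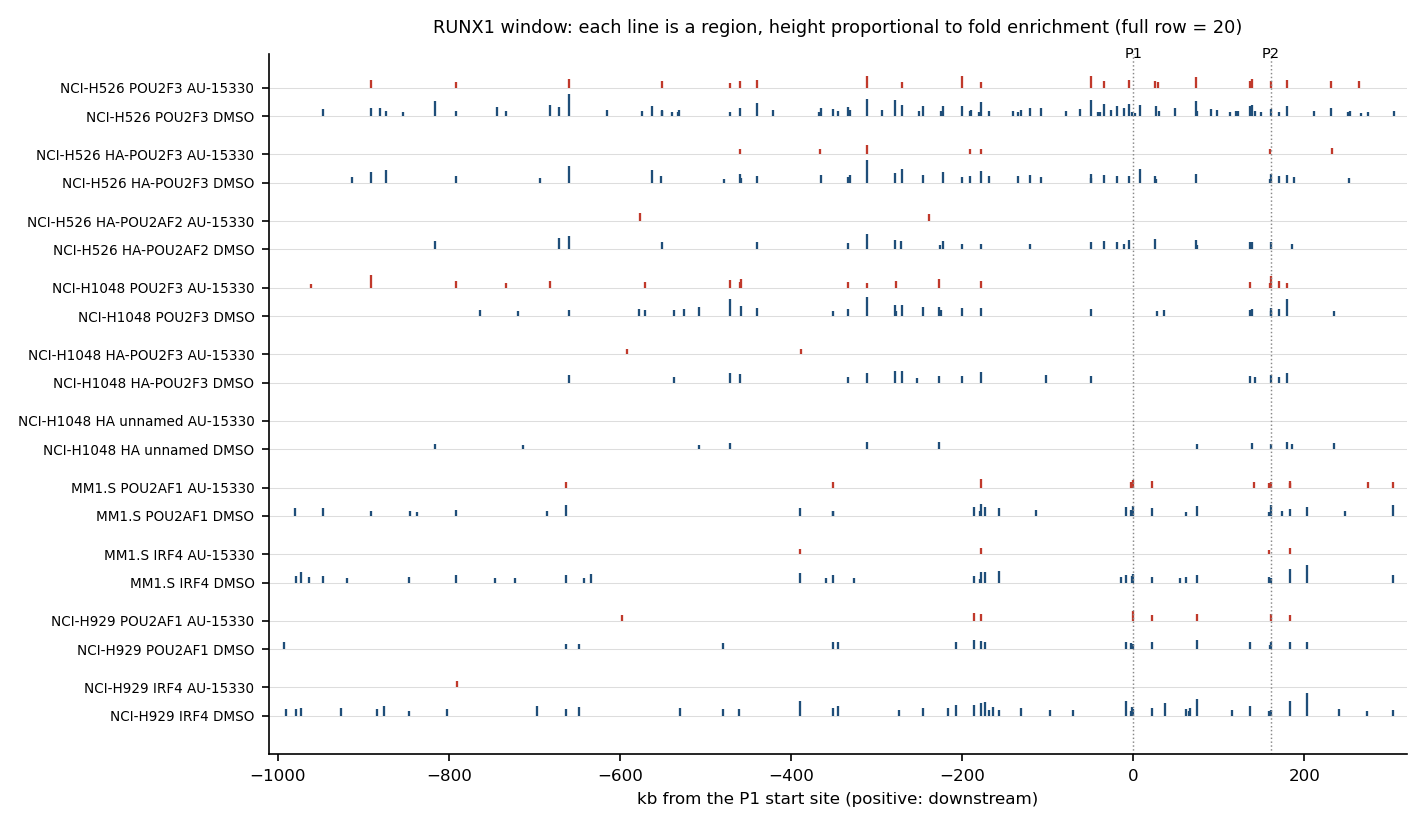
Regions along RUNX1, as distance in kb from the start of P1 along the gene (horizontal axis, upstream to the left), with 1 row for each list and the AU-15330 row of each pair above its DMSO row. Line height is the fold. The 6 SCLC-P DMSO rows hold a region at -311 kb where the myeloma rows are empty, the myeloma DMSO rows hold +203 kb, and P2 at 161 kb is filled in all 10 DMSO rows.

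At RUNX2 the promoters held few regions and the gene body and its flanks held the rest. Within 1 kb of RUNX2 P1 there was no AU-15330 region, against a DMSO region of NCI-H929 IRF4 with a fold of 3.59 and one of the unnamed HA protein with a fold of 3.24. RUNX2 P2, 94.2 kb further along the gene, gained an AU-15330 region for NCI-H1048 POU2F3 (fold 4.59) and for NCI-H929 POU2AF1 (2.51). Its DMSO regions were all lost, with folds of 4.03 for NCI-H1048 HA-POU2F3, 3.17 for NCI-H929 IRF4, 3.10 for MM1.S POU2AF1 and 2.37 for NCI-H526 POU2F3.

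The +279.6 kb site held the highest RUNX2 fold in 4 of the 6 SCLC-P DMSO lists and no myeloma DMSO region. POU2F3 had a fold of 6.36 with AU-15330 against 10.2 with DMSO in NCI-H526 (level ratio 0.563), and 5.15 against 10.1 in NCI-H1048 (0.509). In the other SCLC-P pairs it was lost, with DMSO folds of 9.16 for NCI-H1048 HA-POU2F3, 7.60 for NCI-H526 HA-POU2F3, 6.22 for the unnamed HA protein and 4.90 for NCI-H526 HA-POU2AF2. The ratios of the 2 untagged POU2F3 pairs were close to each other here.

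At +48.1 kb, also an SCLC-P site, the 2 untagged POU2F3 pairs differed in direction. NCI-H1048 POU2F3 had a level of 22.1 with AU-15330 against 14.1 with DMSO (ratio 1.56), and a second, weaker DMSO region of the same site gave 2.94, the highest ratio of that pair. NCI-H526 POU2F3 had a ratio of 0.676 and NCI-H526 HA-POU2F3 0.493, and the other 3 SCLC-P pairs lost the site. The RUNX2 +382 kb site, held by all 10 DMSO lists and lying downstream of RUNX2, had a level of 6.72 with AU-15330 against 31.1 with DMSO for NCI-H929 IRF4 (ratio 0.216). Its ratio was 0.524 for NCI-H526 POU2F3, 0.663 for NCI-H1048 POU2F3 and 1.11 for NCI-H929 POU2AF1, and the other 6 pairs lost it.

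IRF4 again had the highest RUNX2 fold in each myeloma line, and those regions were lost, although NCI-H929 IRF4 kept the +382 kb site. At +332 kb its DMSO fold in NCI-H929 was 13.9 (rank 757), and at +231 kb its DMSO folds were 8.97 in MM1.S (rank 687) and 7.04 in NCI-H929, with no AU-15330 region at either site. POU2AF1 kept the +49.7 kb site in NCI-H929, where its fold was 4.60 with AU-15330 and 7.15 with DMSO (ratio 0.604). That region lies within 1 kb of an annotated start of the neighboring gene SUPT3H, not of RUNX2.

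RUNX3 had the fewest regions of the RUNX genes, and its 2 promoters differed in the lists that held them. P1 was a myeloma site. IRF4 had no region at RUNX3 P1 with AU-15330, against DMSO folds of 7.64 in MM1.S and 7.52 in NCI-H929, the highest RUNX3 folds of both lists. MM1.S POU2AF1 had a level of 7.21 with AU-15330 against 13.8 with DMSO (ratio 0.522), and NCI-H929 POU2AF1 6.86 against 5.99 (1.14). The 2 NCI-H929 regions overlapped only in part, and each summit held 14 fragments. P2 was the 1 RUNX3 site of both tumor types. There NCI-H526 POU2F3 had a ratio of 0.866 and NCI-H1048 POU2F3 0.881, and the regions of NCI-H1048 HA-POU2F3 (DMSO fold 3.32) and NCI-H929 IRF4 (4.12) were lost. In MM1.S, POU2AF1 had ratios of 1.11 and 1.31 at 2 retained DMSO regions near RUNX3 P2, both against the same AU-15330 region. Its MM1.S region over the P2 start itself was lost (DMSO fold 3.77). In NCI-H929 its ratios were 0.933 and 1.33 at 2 retained DMSO regions, again both against the same AU-15330 region.

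At CBFB the promoter itself was the main site, in 6 DMSO lists. NCI-H1048 POU2F3 had a fold of 11.3 with AU-15330 against 6.13 with DMSO and a level of 19.1 against 8.39 (ratio 2.28). NCI-H929 POU2AF1 had a level of 17.1 against 15.4 (1.11), and MM1.S POU2AF1 a ratio of 0.942. The promoter region was lost for IRF4 in both myeloma lines (DMSO folds of 5.21 in MM1.S and 4.32 in NCI-H929) and for NCI-H526 HA-POU2F3 (4.45). POU2F3 in NCI-H1048 and POU2AF1 in both myeloma lines thus kept the CBFB promoter, and IRF4 did not. At +80.7 kb, NCI-H526 HA-POU2F3 had a ratio of 0.99 and NCI-H929 POU2AF1 1.36. DMSO regions there were lost for NCI-H526 POU2F3 (fold 4.57), MM1.S IRF4 (4.14) and NCI-H929 IRF4 (3.81). This site lies downstream of CBFB, within 1 kb of an annotated start of another gene. At -28.5 kb, NCI-H929 IRF4 kept its strongest CBFB region, with a fold of 4.64 with AU-15330 and 6.78 with DMSO (ratio 0.639).

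**Figure D3:**
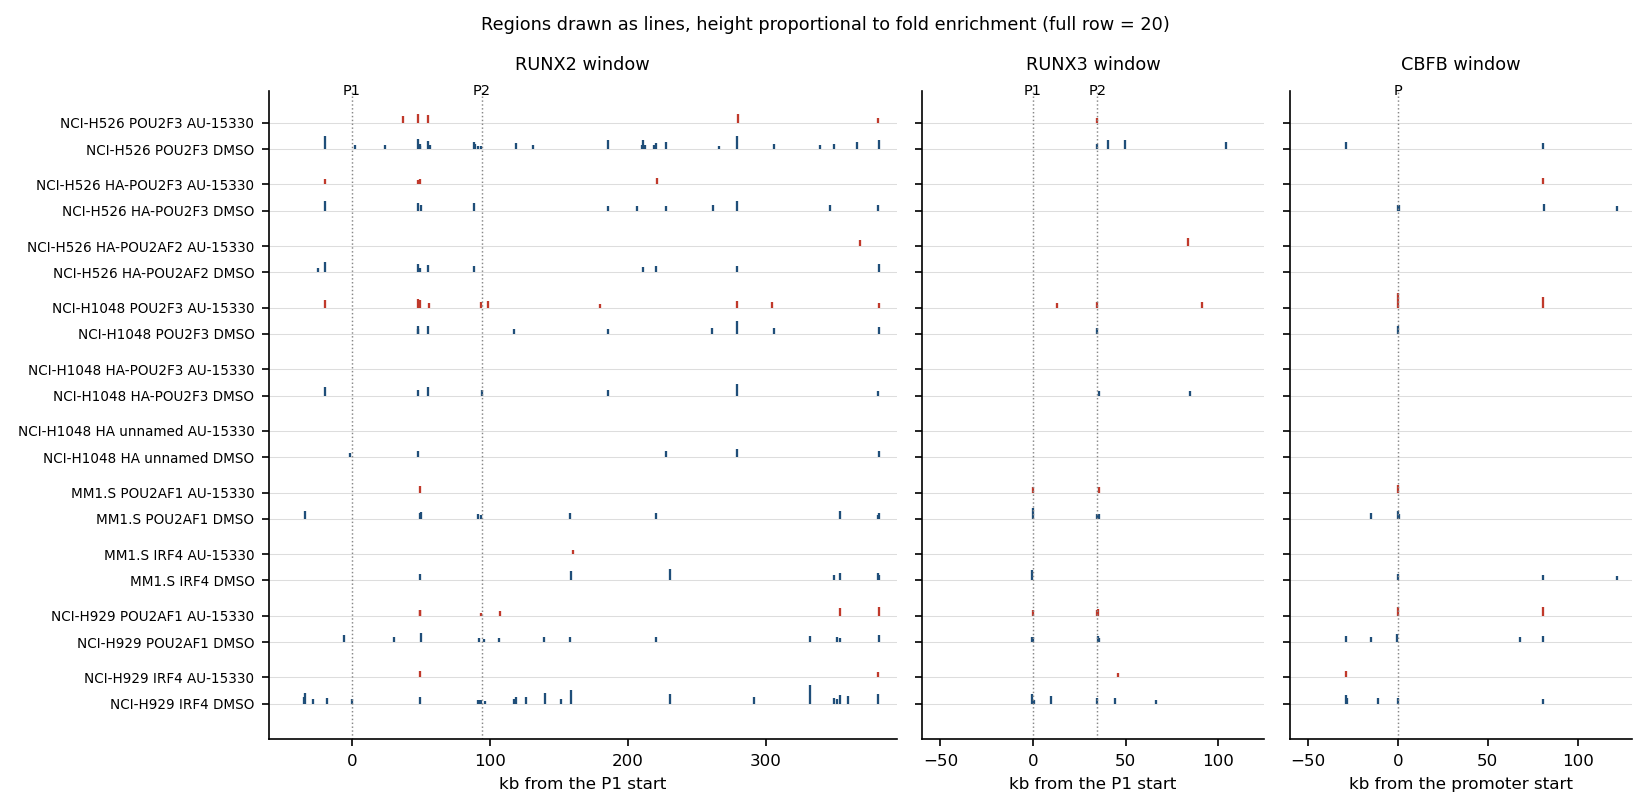
Regions along RUNX2, RUNX3 and CBFB, as distance in kb from the start of P1, or of the CBFB promoter (horizontal axes), with 1 row for each list and AU-15330 above DMSO in each pair. RUNX3 P1 at 0 is filled in the 4 myeloma DMSO rows, the CBFB promoter in 6 DMSO rows, and the RUNX2 site at 382 kb in 10.

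Region by region, the loss with AU-15330 at these genes was close to that of the whole list in most pairs. A DMSO region is called retained if the AU-15330 list of its pair has a region that overlaps it, and lost otherwise. For POU2F3 in NCI-H526, 94 of 121 member regions were lost, where 83.3% of all regions of the list were, and 27 were retained (22.3%, 95% Clopper-Pearson interval 15.2 to 30.8). For HA-POU2F3 in that line 49 of 57 were lost (85.4% over the list), and 8 retained (14%, 6.26 to 25.8). For HA-POU2AF2 all 36 were lost (98.7% over the list), which allows a retained share of up to 9.74%. In NCI-H1048, POU2F3 lost 24 of 43 (55.4% over the list) and retained 19 (44.2%, 29.1 to 60.1). HA-POU2F3 lost all 28 (92.3% over the list; retained up to 12.3%), and the unnamed HA protein all 17 (98.0%; up to 19.5%). The untagged POU2F3 pair of NCI-H1048 thus had the highest retained share of the SCLC-P pairs, but this order depends on the number of regions compared. With the same number of strongest regions in both lists of a pair, it retained 14 of 43 (32.6%) and NCI-H526 POU2F3 19 of 31 (61.3%).

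In myeloma POU2AF1 retained about as large a share as in its whole lists, and IRF4 little. POU2AF1 lost 31 of 47 in MM1.S (66.3% over the list) and retained 16 (34.0%, 20.9 to 49.3). It lost 27 of 42 in NCI-H929 (61.6% over the list) and retained 15 (35.7%, 21.6 to 52.0). IRF4 lost 42 of 45 in MM1.S (90.2% over the list) and retained 3 (6.67%, 1.40 to 18.3). In NCI-H929 it lost 82 of 85 (99.1% over the list) and retained 3 (3.53%, 0.734 to 9.97). The retained share of the whole list lay inside the member interval in each of these 10 pairs.

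The libraries of a pair differed in depth. The background number of fragments was 1.21 with AU-15330 and 3.49 with DMSO for NCI-H526 HA-POU2AF2, and 2.02 against 4.03 for NCI-H526 POU2F3. It was higher with AU-15330 for NCI-H1048 POU2F3, at 3.04 against 2.27, the pair with the highest retained share in SCLC-P and the most gained regions, and the part of depth in those values was not tested. In the other 6 pairs with a level it was 1.94 to 2.32 with AU-15330 and 2.07 to 2.44 with DMSO. The probability that an unchanged region would still have passed the threshold of the AU-15330 list was therefore computed from each DMSO level. Summed over the regions lost, it gave 26.3 of 36 for HA-POU2AF2 and 67.5 of 94 for POU2F3 in NCI-H526, the 2 lowest shares. It gave 45.0 of 49 for NCI-H526 HA-POU2F3, 23.4 of 24 for NCI-H1048 POU2F3, 25.6 of 28 for NCI-H1048 HA-POU2F3, 27.9 of 31 for MM1.S POU2AF1, 38.6 of 42 for MM1.S IRF4, 23.6 of 27 for NCI-H929 POU2AF1 and 74.5 of 82 for NCI-H929 IRF4. Over all DMSO regions, lost or retained, the mean probability was 73.0% at members for HA-POU2AF2 (54.7% over the list). For NCI-H526 POU2F3 it was 76.8% (77.7%). In the other pairs with a level it was 90.1 to 98.4% at members and 88.9 to 98.1% over the list. The probability starts from summits that had already passed the DMSO threshold. The part of depth in the losses was not tested.

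Retained regions mostly had a lower level, except in NCI-H929 POU2AF1. For NCI-H526 POU2F3 the level was lower with AU-15330 at 22 of 27 retained regions, against 86.5% of those of the whole list, with a median ratio of 0.613 (list 0.635). For NCI-H526 HA-POU2F3 it was lower at 8 of 8 (87.2% over the list; medians 0.454 and 0.642). For NCI-H1048 POU2F3 it was lower at 14 of 19, against 39.6% over the list, and the medians were 0.663 and 1.27. For MM1.S POU2AF1 it was lower at 12 of 16 (76.2%; 0.763 and 0.809), and for MM1.S IRF4 at 3 of 3 (83.7%; 0.358 and 0.733). For NCI-H929 POU2AF1 it was lower at 8 of 15 (52.8%; 0.933 and 0.979), and for NCI-H929 IRF4 at 3 of 3 (81.9%; 0.584 and 0.491). NCI-H1048 POU2F3 was the one pair where the member median lay below 1 while the list median lay above it.

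Position relative to a promoter went with this. A promoter region here lies within 1 kb of an annotated start of any protein-coding gene, neighbors of the members included. Within 1 kb of an annotated start, NCI-H1048 POU2F3 retained 3 of 4 member regions (91.2% over the list) with a median ratio of 2.28 (list 2.14), above 1 at RUNX1 P2 and CBFB and below 1 at RUNX3 P2. Elsewhere it retained 16 of 39 (33.5%) with a median of 0.649 (list 0.835). The same split held for POU2AF1, which retained 8 of 11 promoter regions and 8 of 36 others in MM1.S, and 8 of 11 and 7 of 31 in NCI-H929. Over the whole lists these shares were 69.4 and 16.2% in MM1.S and 75.4 and 16.7% in NCI-H929. POU2F3 in NCI-H526 retained 2 of 8 promoter regions and 25 of 113 others (22.8 and 15.7% over the list). IRF4 retained 0 of 7 promoter regions and 3 of 38 others in MM1.S (20.3 and 5.49% over the list). In NCI-H929 it retained 2 of 13 and 1 of 72 (1.97 and 0.598% over the list).

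**Figure D4:**
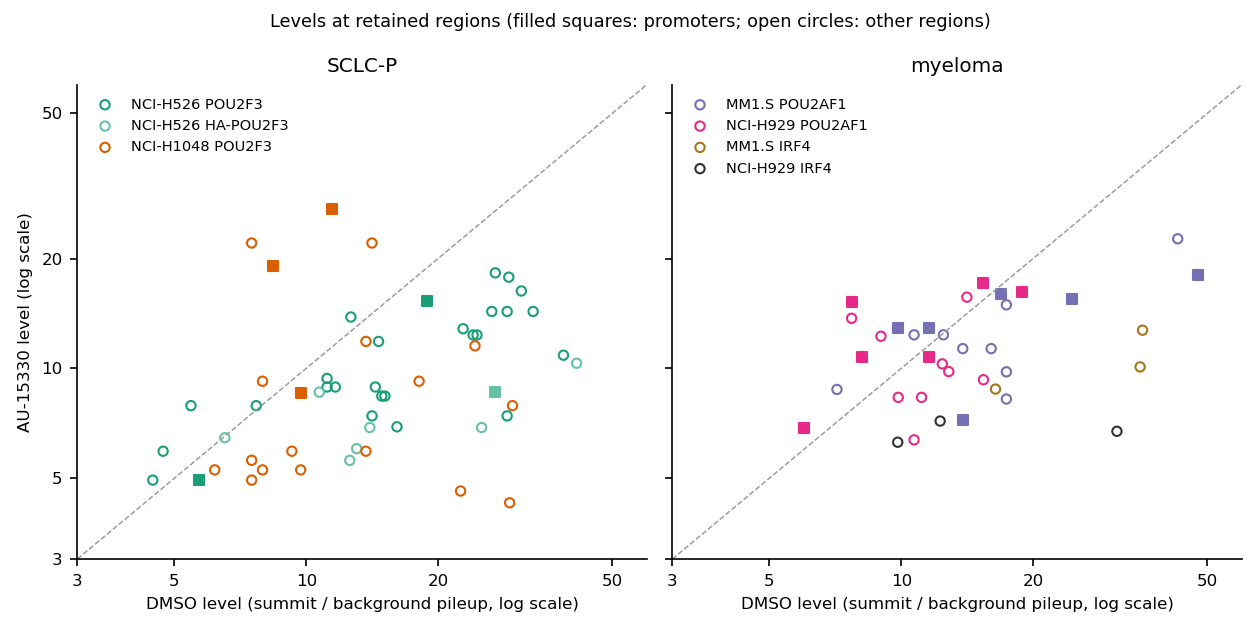
Level with AU-15330 (vertical axis) against level with DMSO (horizontal axis) at each retained member region, both as summit fragments over background on log scales. Squares mark regions within 1 kb of a promoter of a member gene, and the diagonal marks equal levels. Of the 3 NCI-H1048 POU2F3 promoter squares, those of RUNX1 P2 (27.3 against 11.5) and CBFB lie above the diagonal and that of RUNX3 P2 lies below it, and the point at 4.28 against 29.1 is RUNX1 -311 kb.

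AU-15330 regions with no DMSO region of the same pair numbered 38. NCI-H1048 POU2F3 gained 15 of its 34 AU-15330 regions, against 67.3% over the list, the strongest a fold of 8.87 at RUNX1 -891 kb and 8.07 at CBFB +80.7 kb. NCI-H526 POU2F3 gained 2 of 29 (15.3%), NCI-H526 HA-POU2F3 4 of 12 (41.9%), NCI-H526 HA-POU2AF2 4 of 4 (83.8%) and NCI-H1048 HA-POU2F3 2 of 2 (73.7%). In myeloma POU2AF1 gained 3 of 18 in MM1.S (38.9%) and 4 of 19 in NCI-H929 (31.2%), and IRF4 2 of 5 in MM1.S (49.9%) and 2 of 5 in NCI-H929 (70.7%). The unnamed HA protein had no AU-15330 region at any member.

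Overlap between proteins of 1 line was higher than over the whole list in some directions and lower in others. Of the NCI-H526 HA-POU2AF2 DMSO regions, 33 of 36 (91.7%) overlapped a POU2F3 region of that line (75.4% over the list), while 27.3% of the POU2F3 regions overlapped one of HA-POU2AF2 (28.6%). Of those of HA-POU2F3, 43 of 57 (75.4%) overlapped a POU2F3 region (64.6% over the list), and 42 of 121 POU2F3 regions (34.7%) one of HA-POU2F3 (40.6%). In NCI-H1048, 20 of 28 HA-POU2F3 regions (71.4%) overlapped a POU2F3 region (58.5% over the list), and 7 of 28 (25%) one of the unnamed HA protein (40.3%). In MM1.S, 28 of 47 POU2AF1 regions (59.6%) overlapped an IRF4 region (48.8% over the list), and in NCI-H929 33 of 42 (78.6%; list 71.3%). Between the SCLC-P lines, 28 of 43 NCI-H1048 POU2F3 regions (65.1%) overlapped one of NCI-H526 POU2F3 (56.6% over the list). Across tumor types, 17 of 47 MM1.S POU2AF1 regions (36.2%) overlapped an NCI-H526 POU2F3 region, close to the 34.6% of its whole list.

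The letters differed between the sites of SCLC-P lists and those of myeloma lists. Tumor type and precipitated protein cannot be told apart in this, and no such share over all sites of the lists was computed. The octamer core TTTGCAT lay anywhere in the merged site at 60 of the 129 SCLC-P sites (46.5%), 7 of the 89 myeloma sites (7.87%) and 9 of the 24 sites of both, whose median lengths were 330, 322 and 559 bases. AP-1 TGAGTCA was at 8 SCLC-P, 19 myeloma and 4 shared sites, the IRF pattern at 6, 13 and 4, and RUNX AACCACA at 19, 18 and 6. Both strands were searched, and of 35116 RefSeq promoters of 300 bases 4.46% hold the octamer core, 4.95% AP-1, 3.57% the IRF pattern and 4.27% the RUNX pattern. A match is a description of the letters and not of a binding event.

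Against their own lists, member summits differed in few of the shares counted here. The octamer core was within 100 bases of 66.7% of HA-POU2AF2 DMSO summits (24 of 36, 95% interval 49.0 to 81.4) against 46.1% over that list, and of 44.6% of NCI-H526 POU2F3 summits against 46.9%. The RUNX pattern was at 22.2% of HA-POU2AF2 member summits (8 of 36, 10.1 to 39.2), whose lower bound is just above the 10.1% of the list. It was at 19.0% of NCI-H929 POU2AF1 member summits (8 of 42, 8.60 to 34.1) against 7.72% over the list, at 17% against 8.59% for MM1.S POU2AF1, at 20% against 10.4% for MM1.S IRF4 and at 2.33% against 7.06% for NCI-H1048 POU2F3. AP-1 was at 20% of NCI-H929 IRF4 summits (17 of 85, 12.1 to 30.1) against 10.3%. The interval left out the value of the list for 4 of 36 shares (9 DMSO lists with summits, 4 patterns), which are those given here with an interval. Further patterns were searched at the same summits and lie outside this count. Sites recur between lists, so the shares are not independent of each other.

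**Figure D5:**
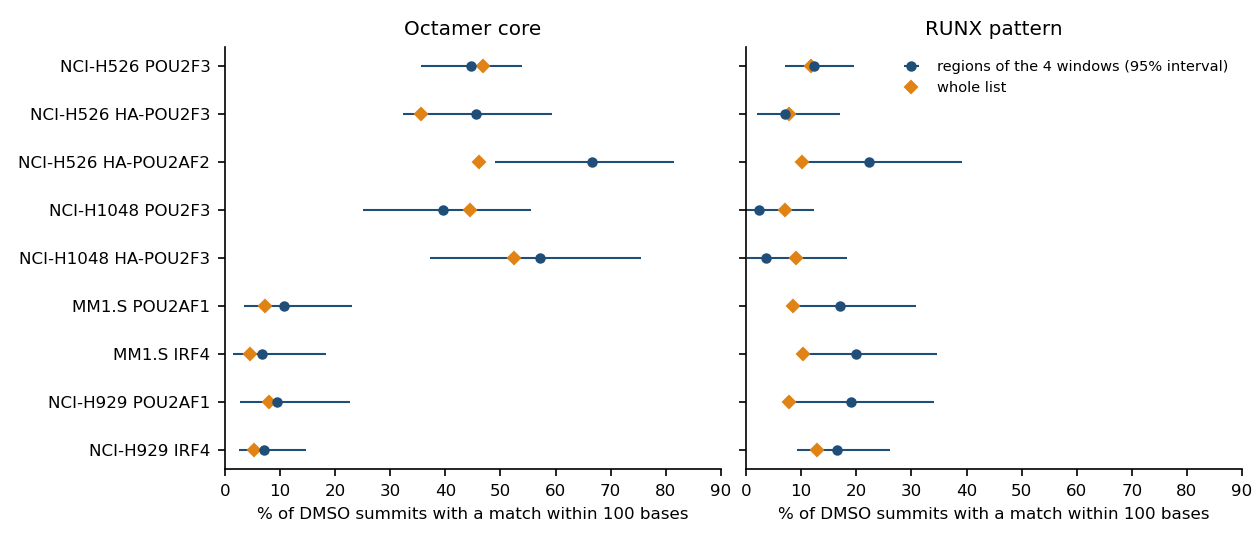
Share of DMSO summits (%) with the octamer core (left) or the RUNX pattern (right) within 100 bases, for member regions with the 95% Clopper-Pearson interval and for the whole list, by line and protein. The octamer core is at 39.5 to 66.7% of SCLC-P member summits and at 6.67 to 10.6% of myeloma member summits.

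Genes that work with the RUNX proteins, from lists drawn up with results of these data known, were counted in the 6 pairs of untagged proteins as genes with a region in the gene body plus 50 kb. The share of all protein-coding genes with a region was 59.7% with AU-15330 and 94.2% with DMSO for NCI-H526 POU2F3, 94.0 and 85.4% for NCI-H1048 POU2F3, 82.0 and 89.3% for MM1.S POU2AF1, 46.0 and 85.4% for MM1.S IRF4, 78.6 and 87.2% for NCI-H929 POU2AF1, and 13.2 and 94.6% for NCI-H929 IRF4. Cofactors of RUNX proteins (12 genes, among them the corepressor TLE3 and the acetyltransferase EP300) had a region at 10 genes with AU-15330 and 12 with DMSO for NCI-H526 POU2F3, 12 and 11 for NCI-H1048 POU2F3, 10 and 12 for MM1.S POU2AF1, 5 and 12 for MM1.S IRF4, 12 and 12 for NCI-H929 POU2AF1, and 4 and 12 for NCI-H929 IRF4. CBFA2T3, a corepressor fused to or recruited by RUNX1 in leukemia, had a highest fold of 20.9 with AU-15330 and 13.9 with DMSO for NCI-H1048 POU2F3, and of 9.79 and 15.2 for NCI-H526 POU2F3.

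Blood cell factors that act with RUNX proteins (12 genes) had a region at 8 genes with AU-15330 and 12 with DMSO for NCI-H526 POU2F3, 12 and 8 for NCI-H1048 POU2F3, 11 and 10 for MM1.S POU2AF1, 5 and 11 for MM1.S IRF4, 9 and 10 for NCI-H929 POU2AF1, and 1 and 12 for NCI-H929 IRF4. GFI1B, a repressor that RUNX1 regulates in blood and that also marks tuft cells, had 8 regions with AU-15330 and 9 with DMSO for NCI-H526 POU2F3, with highest folds of 8.43 and 12.3. Known RUNX targets in blood cells (10 genes) had a region at 10 of 10 in the 4 myeloma DMSO lists, 9 for NCI-H526 POU2F3 and 7 for NCI-H1048 POU2F3. CSF1R, the receptor of a macrophage growth factor, was without a region in both of these POU2F3 DMSO lists. Its highest fold in the myeloma DMSO lists was 7.43, for NCI-H929 IRF4. Known RUNX2 targets in bone (7 genes) had a region at 6 or 7 genes in each of the 6 DMSO lists, so the lists for bone and for blood were both near the share of all genes.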

How the data were processed

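ChIP-seq of 20 libraries (10 AU-15330 and DMSO pairs, 1 library for each condition) was read from the lists of regions the authors deposited. The authors trimmed paired reads (Trimmomatic 0.39), aligned them to GRCh38 with BWA-MEM, marked duplicates with Picard, called regions in each library with MACS2 at a q of 0.05 with no control named, and removed blacklisted regions. The deposited columns are a score (10 times the -log10 q), the fold enrichment at the summit, the -log10 p-value and the -log10 q-value, with summits in 18 of 20 lists. Read totals are not given in the sources used here, so depth was taken from the lists.

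Regions outside the autosomes, X and Y were dropped, 0.283 to 12.4% of a list. Gene bodies came from GENCODE 44, and sequences from GRCh38 and from the RefSeq promoter table. From the deposited fold and -log10 p the number of fragments at each summit and the local background were solved (tolerance 0.002), since MACS2 adds 1 to both. The level is that number over the lowest background of the library. It could not be solved for the unnamed HA pair, so that pair has no level. Regions were merged into sites, and retained, where they overlapped by 1 base. Intervals are 95% Clopper-Pearson. Members and gene lists were chosen with earlier results of these data known. The split into promoter and other regions and the probability of a call were added after the data were seen. Named regions are the strongest of each gene and list, those at promoters, those with extreme ratios or gained, those shared by both tumor types, and those of rank 100 or better. The +183 kb site of RUNX1, the +48.1 kb site of RUNX2 and the -472 kb site of RUNX1 were singled out after their values were seen. No test was possible with 1 library for each condition, and no comparison columns of the authors were present. Scripts ran in Python 3.11.15 with NumPy 2.4.6, pandas 2.3.3 and SciPy 1.17.1 and were tested on simulated data.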

Additional observations from a re-analysis of the deposited data

Results flagged for a closer look

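At 5 member sites the 2 lines that share a protein had level ratios on opposite sides of 1 and at least 2-fold apart. Such pairs of ratios were common over the whole lists. Among NCI-H1048 POU2F3 regions with a ratio in both lines they made up 4 of 13 at the members and 41.6% of 5299 over the list, and among those of NCI-H929 POU2AF1 2 of 8 at the members and 10.5% of 8301 over the list. None of these differences was tested, since each rests on 1 library for each condition. For POU2F3 the ratio was 2.38 in NCI-H1048 and 0.813 in NCI-H526 at RUNX1 P2, 1.56 in NCI-H1048 and 0.676 in NCI-H526 at RUNX2 +48.1 kb, and 0.267 in NCI-H1048 and 1.11 in NCI-H526 at RUNX1 -472 kb. For POU2AF1 it was 1.97 in NCI-H929 and 0.630 in MM1.S at RUNX1 P1, and 1.14 in NCI-H929 and 0.522 in MM1.S at RUNX3 P1. Both NCI-H929 summits at RUNX3 P1 held 14 fragments. The 1.14 thus comes from the background numbers, 2.04 with AU-15330 and 2.34 with DMSO, and the ratio of the folds was 1.01. At -472 kb, whose DMSO level in NCI-H1048 was 29.6, the direction is the reverse of that at the other POU2F3 sites.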

How the results depend on the processing

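Of 126 values under an alternative setting, 101 stayed within 1.5 times the reported count or within the counting interval, 24 moved and 1 reversed. A median level ratio was held to stay if it shifted by less than the standard deviation of the ratios, on the same side of 1. Some of the 101 could not change. Starting the RUNX1 body at P1 leaves the other genes as they were, and a pair with no retained region has none under a stricter threshold. Regions in the 4 windows numbered 73 in the AU-15330 lists at a -log10 q of at least 5 (128 as reported). With the RUNX1 body started at P1 they numbered 85 with AU-15330 and 310 with DMSO (521 as reported). With the same number of strongest regions in both lists, the retained share was 61.3% for NCI-H526 POU2F3 (22.3% as reported), 31.6% for NCI-H526 HA-POU2F3 (14%) and 0% for NCI-H929 IRF4 (3.53%). With at least 50% of the DMSO region covered, and also with a -log10 q of at least 5 in both lists, it was 5.26% for NCI-H526 HA-POU2F3 and 0% for NCI-H929 IRF4. By the ratio of the authors' folds the median was 0.639 for MM1.S IRF4 (0.358 as reported) and 1.01 for NCI-H929 POU2AF1, above 1 where the level ratio was 0.933. Within 50 bases of the summit the octamer core was at 33.9% of NCI-H526 POU2F3 and 1.18% of NCI-H929 IRF4 DMSO summits (44.6 and 7.06% as reported). The cause of these shifts was not tested. The background number of fragments, taken as depth, was 2.02 with AU-15330 against 4.03 with DMSO for NCI-H526 POU2F3. For NCI-H526 HA-POU2AF2 it was 1.21 against 3.49, and its part in what was called was not tested. No paired analysis was possible because each line, protein and treatment has 1 library, so no result comes from a test over replicates.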
